A study of Canis lupus familiaris with 55 samples.

Results

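HOX genes encode homeodomain transcription factors that sit in clusters on separate chromosomes, numbered by paralogue along each cluster. Genes at the low-numbered 3′ end of a cluster are turned on first and reach furthest towards the head, and genes at the high-numbered 5′ end are turned on later and stay near the tail and in the distal limbs. In the urogenital system the best known members are HOXA10, HOXA11 and HOXA13, which pattern the reproductive tract of the mouse, and HOXA11 and HOXD11, which act in its kidney. HOX proteins bind DNA together with TALE homeodomain cofactors of the PBX, MEIS and PKNOX families. The members described here are all loci of the transcript assembly that carry a HOXA, HOXB, HOXC or HOXD gene name, taken by name and not by level. These were 33 gene names at 30 of the 58781 loci. No locus carried the names HOXA9, HOXC5, HOXC8, HOXC9, HOXD9 or HOXD13, so rankings and cluster sums leave these genes out.

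Gene expression was measured by RNA-seq in 55 libraries of canine embryonic gonads from d34 to d44 of gestation. XX DSD embryos came from a pedigree of mixed American cocker spaniel and beagle origin in which XX, SRY-negative dogs develop ovotestes or testes, and were called at risk because they carried the guanine insertion in BTBD17 of CFA9. The XX DSD groups held 9 embryos at d35 (4 homozygous and 5 heterozygous for the insertion), 8 at d37-39 (6 homozygous) and 6 at d41-44 (6 homozygous). Controls were XX embryos of wild type beagle parents, 6 at d37-39 and 3 at d44, and 1 pool of XX gonads at d34 from a mix of beagle and Labrador. XY DSD littermates, which have SRY, form testes and carried the insertion too, numbered 4 at d35 (3 homozygous and 1 heterozygous). They numbered 5 at d37-39 (5 homozygous) and 3 at d41-44 (1 homozygous and 2 heterozygous). Genotype thus differed between XX DSD and XY littermates, most at d41-44, and shifted with age in both. Its part was not tested. XY Control embryos numbered 6 at d37-39 and 3 at d44, with 1 pool at d34. The pools held 6 XX and 7 XY embryos, and every other library was the gonad pair of 1 embryo. Phenotype was not known for these gonads, since risk was read from genotype alone. Litters numbered 4 at each age for XX DSD, and 2 at d37-39 and 1 at d44 for the controls. XY littermates came from 2 litters at d35, 4 at d37-39 and 2 at d41-44. At d35 and d41-44 some XX DSD embryos thus had no XY littermate among the libraries, and sex and litter are partly mixed. Libraries were pooled for sequencing by pedigree, so that pedigree, breed background and sequencing pool cannot be told apart. At d41-44 age differs too, since all controls were of d44 and 1 of the 6 XX DSD embryos and none of the 3 XY littermates was.

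Values are FPKM, read numbers scaled by transcript length and by library size, so that levels can be set beside each other between loci. The relative depth of the libraries, with the deepest set to 1, ranged from 0.138 (the XY pool of d34) to 1, and at d41-44 it was 0.257 to 0.321 in XX DSD libraries against 0.607 to 0.824 in XX controls. The sex labels matched the testis hormone gene AMH, read from the table of annotated genes, which was 844 to 6270 FPKM in XY libraries and 0.814 to 33.6 FPKM in XX libraries. In 4 libraries of d37-39, the XY Control A1099 and the XY littermates C3627, C3637 and C3638, 6839 to 8691 unannotated loci reached 1 FPKM, against 2417 to 4962 in the other 51. The tissue carried gonadal somatic markers in every library (WT1 at 21.3 FPKM or more), and the mesonephric duct genes PAX2 and LHX1 were at or near 0 (at most 0.439 and 0.168 FPKM). The 7 markers of mesonephros and duct together summed to 2.25 to 11.9 FPKM, and PAX8 and GATA3 among them were found in every library (0.729 to 7.08 and 0.427 to 3.8 FPKM). ELAVL4, a neuronal gene, was 54.7 and 44.6 FPKM in the XX and XY pools of d34, and at most 39.9 FPKM in any later embryo. The summed level of the 3 steroidogenic markers found (STAR, CYP11A1, CYP17A1) was 161 to 2320 FPKM over all XX libraries and, apart from the pool of d34 at 246, 1030 to 8790 FPKM in XY libraries. In bulk gonads, fewer cells of a type and less RNA per cell cannot be told apart.

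The HOXA cluster lay on CFA14 and the HOXB cluster on CFA9 from 24792889 to 24961243, in coordinates of CanFam3. The HOXC cluster lay on CFA27 from 1209476 to 1323370 and the HOXD cluster on CFA36 from 19907442 to 19997060. In 19 loci a single HOX gene stood alone. Another 5 loci joined 14 genes whose transcripts ran into each other, and their values could not be split: HOXA2-A6 (HOXA2, HOXA3, HOXA4, HOXA5 and HOXA6), HOXB3-B4-B6, HOXC4-C6 (HOXC4 and HOXC6), HOXD3-D4 and HOXD10-D11. HOXC4-C6 also held ENSCAFG00000028496 and ENSCAFG00000032625, and HOXD3-D4 the microRNA gene cfa-mir-10b. The other 6 loci were transcripts on the opposite strand and are called antisense here. The library kit did not keep strand, so reads in exons that overlap cannot be assigned to 1 strand: this holds for 83.0% of the exon bases of HOXD8 antisense (77.4% of those of HOXD8) but for 0.791% of those of HOXD1 antisense and 1.97% of those of HOXD10 antisense. The gene models of HOXB1, HOXB9, HOXB13, HOXC11, HOXC12, HOXC13 and HOXD12 were 753 to 975 bp long, whole multiples of 3, and so hold the coding length without UTRs.

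Most of the expression lay in a few loci. Of the 24 sense loci, 7 were at 1 FPKM or more in every library (HOXA2-A6, HOXA7, HOXB3-B4-B6, HOXC4-C6, HOXD3-D4, HOXD8 and HOXD10-D11), and 10 stayed under 1 FPKM in every library. All 7 sense loci that begin at paralogue 11 or higher were among these 10. The highest locus of all was HOXD8, with a lowest value of 35.4, a median of 73.0 and a highest value of 105 FPKM over the 55 libraries. It was followed by HOXC4-C6 (8.97, 20.3 and 40.3 FPKM) and HOXD3-D4 (6.02, 16.1 and 79.5 FPKM), whose ranges overlapped. HOXA2-A6 was the highest of its cluster (3.5, 7.83 and 24.8 FPKM), and HOXB3-B4-B6 of its own (1.08, 2.36 and 12.1 FPKM). The lowest members were HOXA13, at most 0.188 FPKM and at 0 in 38 libraries, HOXB13, at most 0.0743 FPKM and at 0 in 54, HOXC12, at 0 in all 55, and HOXD12, at most 0.124 FPKM and at 0 in 49. HOXA13 acts in the posterior urogenital tract and digits, and HOXB13 in the prostate and tail. HOXA11 reached 0.396 FPKM in the XY pool of d34 and at most 0.123 FPKM in any single embryo. Of the antisense loci, HOXD8 antisense was highest (12, 28.9 and 51.8 FPKM), followed by HOXD10 antisense (0.00534, 22.5 and 68.3 FPKM), whose lowest value belonged to the XX DSD embryo C3633 of d37-39.

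**Figure D1:**
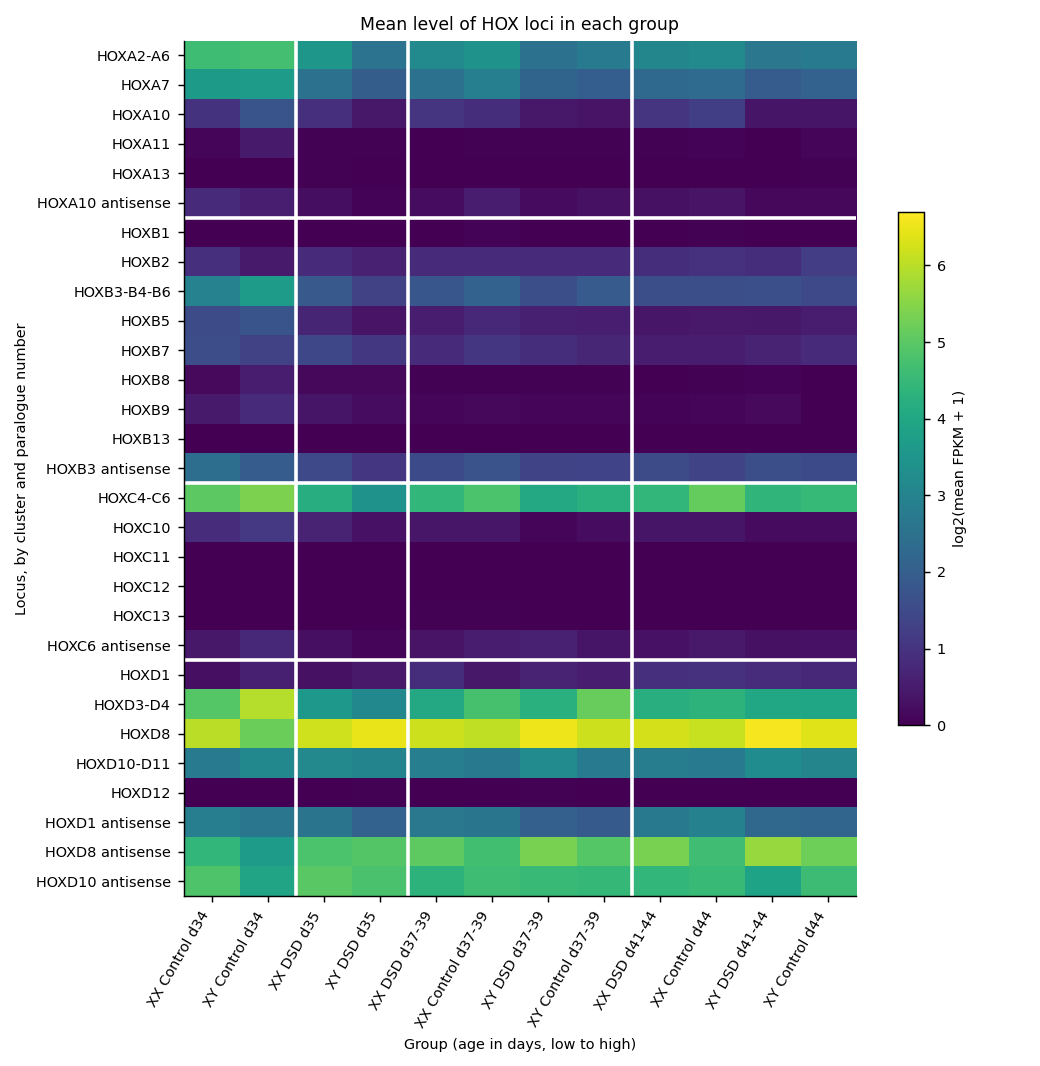
Mean level of 29 HOX loci in the 12 groups, as log2(mean FPKM + 1) by colour. Rows run by cluster and paralogue number with antisense loci last in each cluster, columns by age. HOXD8 is the brightest row in all groups but the XY pool of d34, where HOXD3-D4 is. The sense loci HOXA11, HOXA13, HOXB13, HOXC11, HOXC12, HOXC13 and HOXD12 are dark throughout.

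Summed over its sense loci, the HOXD cluster was the largest in every group. At d37-39 its sum was 94.5 ± 11.3 FPKM in XX DSD (SD, n = 8) and 97.0 ± 3.62 FPKM in XX Control gonads (SD, n = 6), with 119 ± 11 FPKM in XY DSD littermates (SD, n = 5) and 112 ± 15.6 FPKM in XY Control gonads (SD, n = 6). The HOXA sum was 15.2 ± 1.74 and 19.1 ± 1.8 FPKM in the same XX groups, and 9.86 ± 2.41 and 10.3 ± 1.68 FPKM in the same XY groups. The lowest HOXA sum of these XX embryos, 12.9 FPKM, lay above the highest of the XY embryos, 12.6 FPKM. The HOXB cluster summed to 3.71 to 6.2 FPKM in group means from d35 on. The d34 pools stood above all other groups in HOXA (37.7 FPKM in XX and 41.6 FPKM in XY) and HOXB (12.1 and 17.5 FPKM).

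XX and XY gonads differed at several members. In controls of d37-39, 4 of 13 tested members were called at an adjusted p under 0.05, all of them higher in XX, where 26.5% of all tested loci were called (12.7% higher and 13.8% lower). The median log2 fold change of the tested members was 0.31, against -0.01 for all tested loci. All p-values are from limma with Benjamini-Hochberg adjustment over all tested loci, and fold changes are on the log2(FPKM + 1) scale, which understates the change of low loci. HOXA7, a trunk patterning gene, had a lowest, median and highest value of 5.50, 6.29 and 7.24 FPKM in XX Control embryos, against 2.15, 3.05 and 3.74 FPKM in XY Control embryos. The groups did not overlap, and the log2 fold change was 0.90 ± 0.11 (SE, adjusted p = 4.3e-05). HOXA2-A6 had 8.10, 9.64 and 11.7 FPKM in XX Control embryos, against 4.37, 5.62 and 6.95 FPKM in XY Control embryos. Again no value was shared, with a log2 fold change of 0.71 ± 0.12 (SE, adjusted p = 0.00055). HOXC4-C6 was higher in XX as well, at 27.1 ± 5.22 against 18.1 ± 4.26 FPKM (SD, n = 6 each), with an overlap of the groups (log2 fold change 0.57, adjusted p = 0.019). The adjusted p of HOXC4-C6 was 0.068 in d39 embryos alone.

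HOXD1 antisense, a transcript that shares almost no exon bases with HOXD1, was the other call of this comparison. It had 4.48, 4.86 and 5.87 FPKM (lowest, median, highest) in XX Control embryos of d37-39, against 2.33, 2.49 and 3.5 FPKM in XY Control embryos. All XX embryos were above all XY embryos (log2 fold change 0.70 ± 0.10 SE, adjusted p = 0.00016). HOXD1 itself was under the filter of 1 FPKM, at 0.343 ± 0.144 and 0.440 ± 0.178 FPKM (SD, n = 6 each). The members of the HOXD cluster on the sense strand did not pass the test here: HOXD8 averaged 65.3 ± 4.67 FPKM in XX and 71.6 ± 7.74 FPKM in XY controls (adjusted p = 0.29), and HOXD10-D11 5.54 ± 0.973 and 5.67 ± 1.15 FPKM (adjusted p = 0.92).

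At d44, 5 of 14 tested members were called between XX Control and XY Control gonads, 3 higher and 2 lower in XX, with 24.8% of all tested loci called (12.8% higher and 12% lower). The median log2 fold change was 0.06 for the tested members and 0.04 for all tested loci. HOXC4-C6 was 32.9, 34.1 and 34.3 FPKM in the XX embryos, against 20.2, 24.1 and 20.5 FPKM in the XY embryos. Every XX value was above every XY value (log2 fold change 0.63 ± 0.09 SE, adjusted p = 0.0045). HOXD1 antisense was 7.07, 6.21 and 6.97 FPKM in XX, against 3.75, 3.20 and 3.62 FPKM in XY embryos. The groups were again apart (log2 fold change 0.78 ± 0.09 SE, adjusted p = 0.0022). HOXD8 antisense went the other way, at 23.8, 24.3 and 23.9 FPKM in XX, against 36.6, 34.4 and 37.4 FPKM in XY embryos (log2 fold change -0.57 ± 0.07 SE, adjusted p = 0.0022). HOXD8, with which it shares most exon bases, was lower in XX too, at 70.8, 69.8 and 68.4 FPKM, against 81.2, 80.8 and 83.2 FPKM in XY embryos (log2 fold change -0.23, adjusted p = 0.043). HOXA2-A6 was 8.40, 8.25 and 7.83 FPKM in XX, against 5.59, 6.46 and 5.70 FPKM in XY embryos (log2 fold change 0.41, adjusted p = 0.015). The adjusted p of HOXA2-A6 was 0.069 without the XX Control A1104 and 0.064 without A1107, and that of HOXD8 was 0.065 to 0.13 without any of 5 of the 6 embryos. In 1 fit over all groups the adjusted p was 0.051 for HOXC4-C6, 0.13 for HOXA2-A6 and 0.19 for HOXD8.

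**Figure D2:**
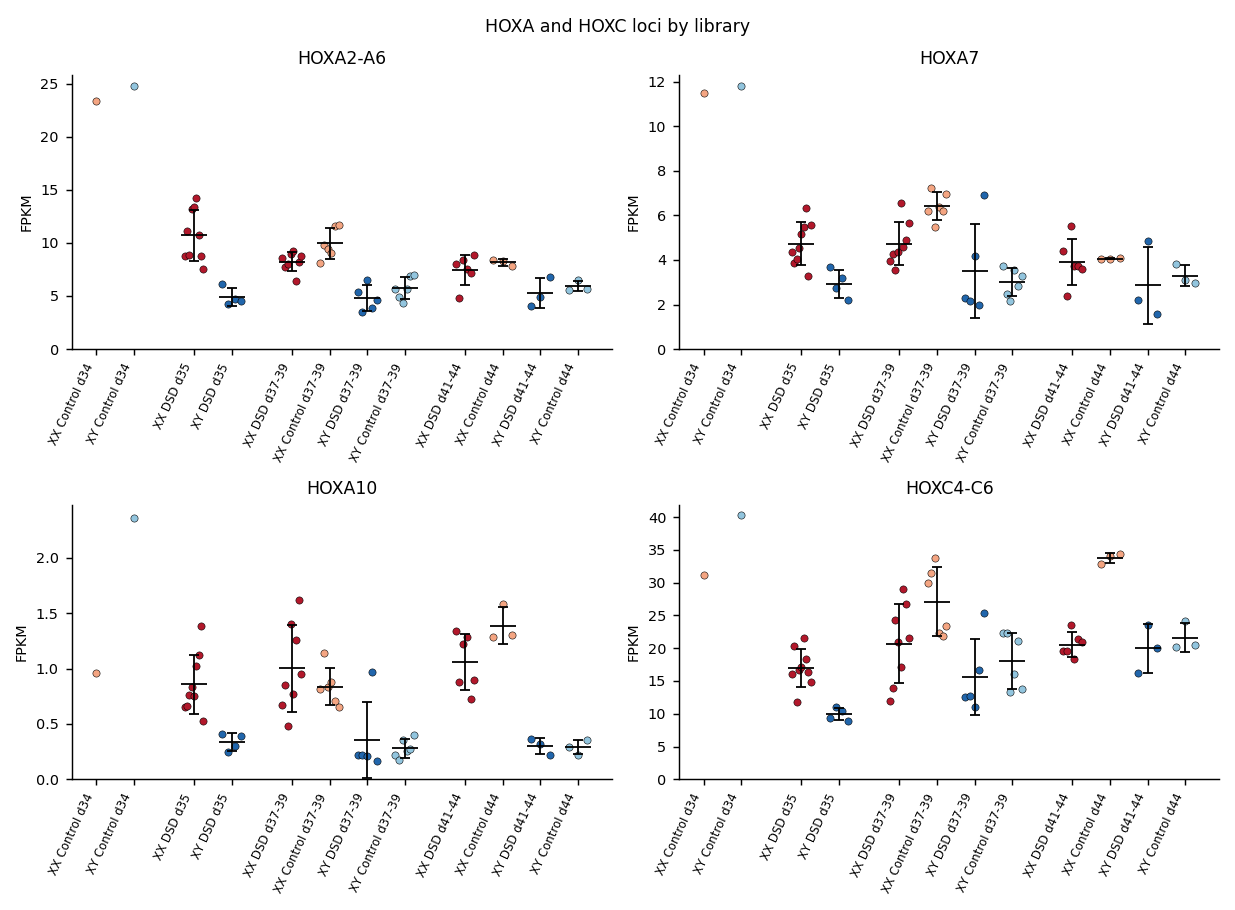
FPKM of HOXA2-A6, HOXA7, HOXA10 and HOXC4-C6 in each library, by group in order of age (dots), with the group mean and SD (bars; the d34 pools are single libraries). XX embryos lie above XY embryos of the same age for HOXA2-A6 in controls of d37-39 and d44 and at d35, and the 3 XX Control embryos of d44 lie above the 6 XX DSD embryos of d41-44 for HOXC4-C6.

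Among embryos of the model pedigree at d35, 6 of 13 tested members were called between XX DSD and XY littermates, all 6 higher in XX DSD. Of all tested loci, 21.4% were called (8.3% higher and 13.1% lower). The 9 XX DSD embryos were of 4 litters and the 4 XY embryos of 2 of these. The median log2 fold change was 0.41 for the tested members and -0.05 for all tested loci. HOXA2-A6 had 7.51, 10.7 and 14.2 FPKM (lowest, median, highest) in XX DSD embryos, against 6.08, 4.25, 4.74 and 4.52 FPKM in XY littermates. There was no overlap (log2 fold change 0.97 ± 0.16 SE, adjusted p = 0.00067). HOXC4-C6 had 11.8, 16.7 and 21.6 FPKM in XX DSD, against 9.33, 11, 10.4 and 8.97 FPKM in XY littermates, also without overlap (log2 fold change 0.71 ± 0.13 SE, adjusted p = 0.0015).

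HOXA7, HOXB3-B4-B6 and HOXD1 antisense were called at d35 too, with an overlap of the groups. HOXA7 had 3.26, 4.52 and 6.32 FPKM in XX DSD, against 3.67, 2.72, 3.18 and 2.2 FPKM in XY littermates (log2 fold change 0.53 ± 0.15 SE, adjusted p = 0.019). HOXB3-B4-B6, which holds the blood stem cell regulator HOXB4, had 1.72, 2.85 and 3.48 FPKM in XX DSD, against 1.89, 1.53, 1.32 and 1.30 FPKM in XY littermates (log2 fold change 0.54 ± 0.15 SE, adjusted p = 0.024). HOXD1 antisense had 3.62, 4.94 and 6.38 FPKM in XX DSD, against 3.80, 3.23, 3.54 and 2.67 FPKM in XY littermates (log2 fold change 0.46 ± 0.13 SE, adjusted p = 0.018). With 4 XY embryos, single libraries weighed on these calls: without C3619 the adjusted p was 0.085 for HOXA7, 0.083 for HOXB3-B4-B6 and 0.082 for HOXD1 antisense. Without C3617 it was 0.062, 0.062 and 0.055 in the same order, and without C3618 it was 0.079 for HOXB3-B4-B6.

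At d37-39 the count was 3 of 13 in the model pedigree, 2 higher and 1 lower in XX DSD than in XY littermates, with 7.49% of all tested loci called (3.41% higher and 4.09% lower). All tested loci had a median log2 fold change of -0.28 here, the tested members one of 0.03. The filter passed 37554 loci here, against 17200 at d35 and 19768 at d41-44. Of the 5 littermates, 3 were libraries with many unannotated loci, and the share and median without these 3 are not given here. Members therefore cannot be set against all loci here as at the other ages. HOXA2-A6 had 6.37, 8.36 and 9.26 FPKM (lowest, median, highest) in XX DSD, against 5.41, 3.5, 6.55, 3.86 and 4.63 FPKM in XY littermates. The ranges met at 1 embryo on each side (log2 fold change 0.69 ± 0.13 SE, adjusted p = 0.0038). HOXD1 antisense had 4.25, 5.38 and 7.17 FPKM in XX DSD, against 3.23, 4.23, 3.99, 2.36 and 1.78 FPKM in XY littermates (log2 fold change 0.67 ± 0.17 SE, adjusted p = 0.027). HOXD8 antisense was lower in XX DSD, at 31.9 ± 3.96 FPKM (SD, n = 8) against 40.0 ± 1.85 FPKM (SD, n = 5) in XY littermates (log2 fold change -0.32, adjusted p = 0.025). Without the 3 littermates that had many unannotated loci, the adjusted p was 0.015 for HOXA2-A6, 0.18 for HOXD1 antisense and 0.17 for HOXD8 antisense. HOXA7, at 2.31, 2.14, 4.18, 1.97 and 6.90 FPKM in the littermates, had an adjusted p of 0.40 with all 5 and of 0.031 without the 3 libraries. The call of HOXD1 antisense was also lost without any of 6 single embryos (adjusted p 0.051 to 0.066), and that of HOXD8 antisense without any of 4 XY littermates (0.055 to 0.066).

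At d41-44, 4 of 13 tested members were called, 2 higher and 2 lower in XX DSD than in XY littermates, with 28.3% of all tested loci called (12.8% higher and 15.5% lower). The tested members had a median log2 fold change of 0.12, against 0 for all tested loci. HOXA10, a regulator of uterine development in the mouse, had 0.724, 1.06 and 1.34 FPKM (lowest, median, highest) in XX DSD, against 0.364, 0.320 and 0.224 FPKM in XY littermates. The XX DSD embryos lay above the littermates, at 3.49 times their mean (log2 fold change 0.65 ± 0.20 SE, adjusted p = 0.040). HOXD8 was lower in XX DSD, at 76.2 ± 4.52 FPKM (SD, n = 6) against 95.9 ± 2.74 FPKM (SD, n = 3), without overlap (log2 fold change -0.33, adjusted p = 0.0034). HOXD8 antisense was lower likewise, at 39.7 ± 0.901 against 49.9 ± 1.84 FPKM (log2 fold change -0.32, adjusted p = 0.00084). HOXD1 antisense was higher, at 5.59 ± 0.539 against 3.82 ± 1.14 FPKM (log2 fold change 0.48, adjusted p = 0.037). The HOXA10 call was lost in 7 of 8 fits that left out 1 embryo (adjusted p 0.059 to 0.099) and without the d41 embryos (0.088), and that of HOXD1 antisense without any of 7 embryos (0.053 to 0.081) and without the d41 embryos (0.14).

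HOXA10 was under the filter in XX against XY gonads at d35 and in controls of d37-39, and it was tested but not called between XX and XY controls of d44 and at d37-39 in the model pedigree. XX DSD embryos averaged 0.857 ± 0.268 FPKM at d35 (SD, n = 9) and 1.00 ± 0.389 FPKM at d37-39 (SD, n = 8), against 0.337 ± 0.0776 FPKM (SD, n = 4) and 0.357 ± 0.342 FPKM (SD, n = 5) in XY littermates. XX controls averaged 0.837 ± 0.169 FPKM at d37-39 (SD, n = 6) and 1.39 ± 0.170 FPKM at d44 (SD, n = 3), against 0.279 ± 0.0841 FPKM (SD, n = 6) and 0.291 ± 0.0659 FPKM (SD, n = 3) in XY controls. A single XY littermate, C3637, with 0.966 FPKM, reached into the XX range after d34. It was 1 of the 4 libraries with many unannotated loci, and the adjusted p of HOXA10 without these libraries is not given here. With no filter on low values the adjusted p of XX against XY was 0.0028 in controls of d37-39, 0.015 in controls of d44 and 0.037 at d35, but 0.38 at d37-39 in the model pedigree. With the filter it was 0.051 in controls of d44 and 0.40 at d37-39 in the model pedigree. The XY pool of d34 had 2.36 FPKM, more than the XX pool at 0.962 FPKM and the highest value of the series.

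Markers of cell types differed between XX and XY as well. The gonadal somatic markers summed to 219 to 312 FPKM in XX Control and 176 to 222 FPKM in XY Control gonads of d37-39 (5 of 6 listed genes found). Of these, WT1 (70.1 against 40.8 FPKM, adjusted p = 9.9e-06), EMX2 (76.5 against 32.7 FPKM, 5e-06) and LHX9 (62.4 against 33.2 FPKM, 0.0015) were higher in XX, GATA4 was lower (52.8 against 79.4 FPKM, 5.4e-05), and NR0B1 was 6.77 FPKM in XX and 6.34 FPKM in XY (0.56). The steroidogenic markers summed to 383 to 2320 FPKM in XX and 4070 to 7520 FPKM in XY controls. The kidney podocyte and nephron markers (6 of 6 found) summed to 66.3 to 87.4 FPKM in XX and 35.3 to 44.2 FPKM in XY controls of d37-39, and to 68.6 to 162 FPKM in XX DSD and 36.2 to 51.3 FPKM in XY littermates of d35. Most of that sum was PODXL, at 69.3 against 34.4 FPKM in controls (adjusted p = 1.4e-06), while UMOD, SIX2 and SLC12A1 did not exceed 0.196, 0.0699 and 0.332 FPKM in XX controls of d37-39. GATA3 of the mesonephros and duct list was 2.42 FPKM in XX and 0.688 FPKM in XY controls (adjusted p = 0.0020), and PAX8 of the same list 2.64 and 2.85 FPKM (0.64). The part of these markers in the HOX values was not tested. An annotated gene without a symbol in the HOXC cluster, ENSCAFG00000032625, read from the table of annotated genes, was 7.11 FPKM in XX and 2.93 FPKM in XY controls of d37-39 (log2 fold change 1.02 ± 0.15 SE, adjusted p = 0.00013). It is part of the HOXC4-C6 locus, whose own log2 fold change was 0.57. A further symbol-less gene of the clusters, ENSCAFG00000002961, is in none of the member loci. It was 3.98 FPKM in XX and 1.63 FPKM in XY controls of d37-39 (adjusted p = 0.00074). In XX DSD it was lower than in XX Control gonads, at 2.16 against 3.98 FPKM at d37-39 (adjusted p = 0.027) and 2.49 against 4.35 FPKM at d41-44 (0.0056).

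XX gonads of the 2 pedigrees were compared at d37-39 and at d41-44. At d37-39, 4 of 14 tested members were called between XX DSD and XX Control gonads, 1 higher and 3 lower in XX DSD, with 13.8% of all tested loci called (5.65% higher and 8.11% lower). The median log2 fold change was -0.28 for the tested members and 0.09 for all tested loci. HOXD3-D4, which holds genes that pattern the upper cervical vertebrae of the mouse, had 12, 15.0 and 18.8 FPKM (lowest, median, highest) in XX DSD, against 17.9, 26.7 and 30.8 FPKM in XX Control embryos. The ranges met only near 18 FPKM, and the ratio of means was 0.603 (log2 fold change -0.68 ± 0.13 SE, adjusted p = 0.0036). In d39 embryos alone and with litter as a random block the adjusted p of HOXD3-D4 was at most 0.046, and the call was kept in all 14 fits that left out 1 embryo. HOXA7 was 4.73 ± 0.975 FPKM in XX DSD (SD, n = 8) and 6.42 ± 0.620 FPKM in XX Control embryos (SD, n = 6; log2 fold change -0.38, adjusted p = 0.030). HOXB3-B4-B6 was 2.47 ± 0.277 and 3.29 ± 0.430 FPKM (log2 fold change -0.31, adjusted p = 0.035). Both of these calls were lost with litter as a random block and in d39 embryos alone, and when any of 7 embryos for HOXA7 (adjusted p 0.051 to 0.076) or 10 for HOXB3-B4-B6 (0.052 to 0.091) was left out.

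HOXD8 antisense was the member that was higher in XX DSD at both ages. At d37-39 it was 27.0, 31.2 and 39.3 FPKM (lowest, median, highest) in XX DSD, against 22.5, 24.7 and 27.0 FPKM in XX Control embryos (log2 fold change 0.36 ± 0.08 SE, adjusted p = 0.0094). At d41-44 it was 38.1, 40.6, 40.4, 39.6, 39.5 and 40.1 FPKM in XX DSD, against 23.8, 24.3 and 23.9 FPKM in XX controls of d44. The gap between the groups was far wider than the spread within either, and the ratio of means was 1.66 (log2 fold change 0.70 ± 0.03 SE, adjusted p = 4e-06). HOXD8 averaged 76.2 ± 4.52 FPKM in XX DSD and 69.7 ± 1.18 FPKM in XX controls there (adjusted p = 0.084). HOXD8 and HOXD8 antisense share most exon bases and the kit kept no strand. A difference of 1 strand alone therefore cannot be read from these values. The d37-39 call of HOXD8 antisense was lost with litter as a random block or in d39 embryos alone (adjusted p up to 0.093). Its d41-44 call was kept in every fit run.

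In all, 3 of 13 tested members were called between XX DSD of d41-44 and XX controls of d44, 1 higher and 2 lower, with 48.5% of all tested loci called (19.3% higher and 29.2% lower), so that the share of members was below that of all loci. Their median log2 fold change was -0.07, against -0.09 for all tested loci. HOXC4-C6 was 19.6, 19.5, 23.6, 18.3, 21.4 and 20.9 FPKM in XX DSD, against 32.9, 34.1 and 34.3 FPKM in XX Control embryos. No XX DSD embryo came near the controls (log2 fold change -0.69 ± 0.07 SE, adjusted p = 5.1e-05), and the XX DSD values lay within 16.2 to 24.1 FPKM, the range of the XY embryos of this age. The 2 symbol-less genes of the locus were lower in XX DSD as well, ENSCAFG00000028496 at 0.381 against 1.49 FPKM (adjusted p = 0.00057) and ENSCAFG00000032625 at 5.63 against 8.39 FPKM (adjusted p = 0.0045). HOXD1 antisense was 5.59 ± 0.539 FPKM in XX DSD (SD, n = 6) and 6.75 ± 0.474 FPKM in XX controls (SD, n = 3; log2 fold change -0.24, adjusted p = 0.034), a call lost without any of 6 embryos (adjusted p 0.056 to 0.12). It was also lost with no filter on low values (0.066), with litter as a random block (0.074), without the d41 embryos (0.094), under median of ratios scaling (0.20) and in 1 fit over all groups (0.23). Of 4 ovary markers, 3 were lower in XX DSD too: FOXL2 at 24.7 against 48.5 FPKM (adjusted p = 4.6e-05), RSPO1 at 37.1 against 98.6 FPKM (6.2e-05) and WNT4 at 16.3 against 35.2 FPKM (2.7e-05). The other, FST, averaged 15.0 FPKM in XX DSD and 13.8 FPKM in XX Control gonads (adjusted p = 0.41). The 4 summed to 80.5 to 111 FPKM in XX DSD against 189 to 202 FPKM in XX Control gonads, and their part in the result was not tested. Depth also differed between these groups, and its part was not tested.

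**Figure D3:**
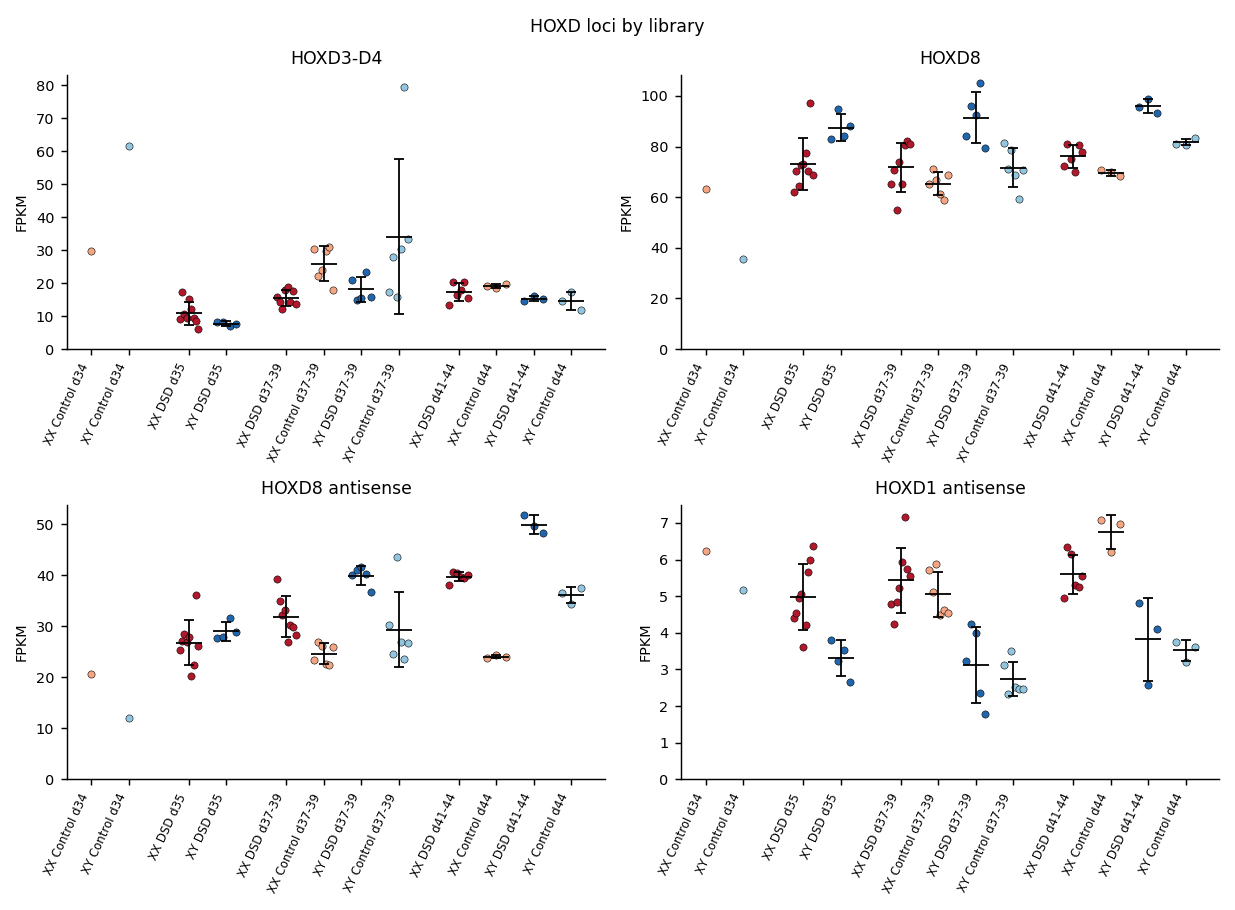
FPKM of HOXD3-D4, HOXD8, HOXD8 antisense and HOXD1 antisense in each library, by group in order of age (dots), with the group mean and SD (bars; the d34 pools are single libraries). HOXD8 antisense lies at 38.1 to 40.6 FPKM in XX DSD of d41-44 and at 23.8 to 24.3 FPKM in XX Control of d44, and the XY Control A1099 stands alone at 79.5 FPKM in HOXD3-D4.

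XY gonads of the 2 pedigrees showed fewer calls. At d37-39, 0 of 12 tested members were called by limma between XY DSD littermates and XY Control gonads (3 at an unadjusted p under 0.05), with 1.29% of all tested loci called (0.402% higher and 0.885% lower). Members had a median log2 fold change of 0.06 and all tested loci one of 0.34. The filter passed 32331 loci here, against 19137 at d41-44. The 4 libraries with many unannotated loci are all in this comparison, and the share and median without them are not given here. HOXD8 was 84.3, 96.0, 92.5, 105 and 79.4 FPKM in XY littermates, against a mean of 71.6 ± 7.74 FPKM in XY controls (SD, n = 6; log2 fold change 0.35, adjusted p = 0.10). Fitted with all groups at once, 4 members were called, a count given without the share of all tested loci called in that fit. HOXD3-D4 was 21.0, 14.9, 15.6, 23.3 and 15.7 FPKM in XY littermates, against 15.8, 29.2 and 79.5 FPKM (lowest, median, highest) in XY controls (adjusted p = 0.44). The value of 79.5 FPKM belonged to A1099, 1 of the 4 libraries with many unannotated loci, and the next highest was 33.4 FPKM. Without the 4 libraries the log2 fold change of HOXD3-D4 was -0.42, against -0.69 with them. At d41-44, 1 of 13 members was called, with 11.2% of all tested loci called (2.63% higher and 8.58% lower): HOXD8 antisense was 51.8, 49.7 and 48.2 FPKM in XY littermates, against 36.6, 34.4 and 37.4 FPKM in XY controls (log2 fold change 0.45 ± 0.09 SE, adjusted p = 0.038). All littermates were above all controls. The call was nonetheless lost without any of 5 of the 6 embryos (adjusted p 0.062 to 0.14) and without the d41 embryo (0.10). Relative depth was 0.272 to 0.299 in these littermates and 0.395 to 0.616 in XY controls of d44, and its part was not tested.

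Whether the pedigree difference itself differed between XX and XY gonads was tested as an interaction. By limma, 0 of 14 members were called at d37-39 (0 at an unadjusted p under 0.05; 0.00514% of all tested loci called) and 0 of 14 at d41-44 (2 at an unadjusted p under 0.05; 0.115% called, 0.0397% higher and 0.0749% lower). The 2 members of d41-44 were HOXC4-C6, at -0.58 ± 0.16 on the log2 scale (SE, adjusted p = 0.18), and HOXD8 antisense, at 0.25 ± 0.07 (SE, adjusted p = 0.18). The lower HOXC4-C6 of XX DSD at d41-44 was therefore not shown to be limited to XX gonads, although XY littermates at 16.2, 23.6 and 20.1 FPKM and XY controls at 20.2, 24.1 and 20.5 FPKM overlapped (log2 fold change -0.12, adjusted p = 0.59).

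**Figure D4:**
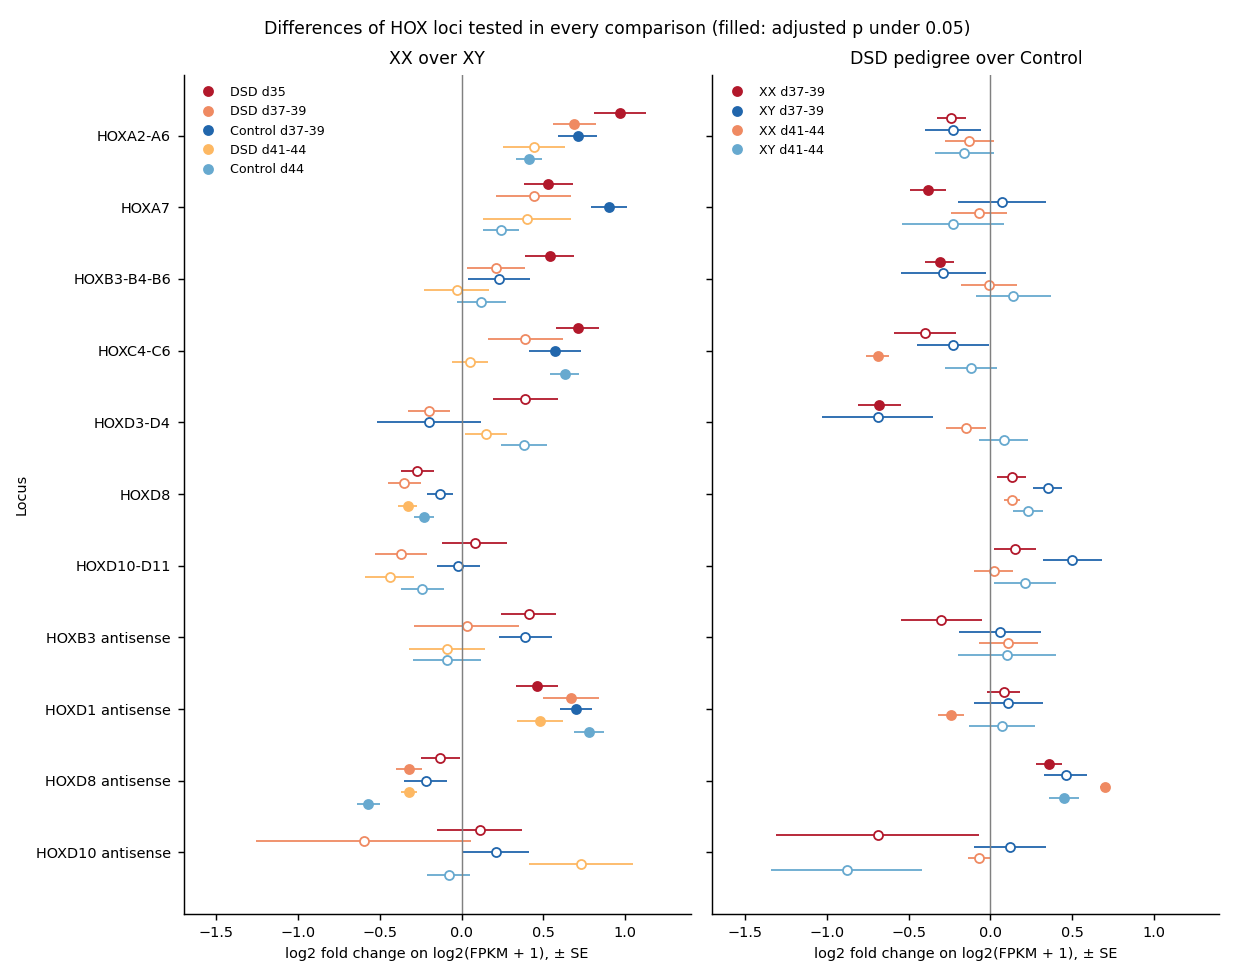
Log2 fold change on the log2(FPKM + 1) scale with its SE for 11 loci tested in every comparison between sexes (XX over XY, left) and between pedigrees (DSD pedigree over Control, right). Filled points have an adjusted p under 0.05. HOXA2-A6 and HOXD1 antisense lie to the right of 0 in all XX over XY comparisons, and HOXD8 antisense lies to the right of 0 in all pedigree comparisons.

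In XX DSD gonads of d41-44 against d35, 4 of 14 tested members were called, 2 higher and 2 lower, with 35% of all tested loci called (13.1% higher and 21.9% lower), and a median log2 fold change of 0.05 for members and -0.03 for all tested loci. HOXB7, a central gene of its cluster, was 0.0848, 0.51 and 0.587 FPKM (lowest, median, highest) at d41-44, against 0.951, 1.5 and 2.73 FPKM at d35. No value overlapped, and the ratio of means was 0.262 (log2 fold change -0.89 ± 0.16 SE, adjusted p = 0.00065). HOXD3-D4 was 13.3, 17.2 and 20.4 FPKM at d41-44, against 6.02, 9.51 and 17.2 FPKM at d35 (log2 fold change 0.67 ± 0.18 SE, adjusted p = 0.0081). HOXD8 antisense rose to 39.7 ± 0.901 FPKM at d41-44 (SD, n = 6), against 26.7 ± 4.39 FPKM at d35 (SD, n = 9; adjusted p = 0.00032). HOXA2-A6 fell to 7.46 ± 1.44 FPKM, against 10.7 ± 2.41 FPKM (log2 fold change -0.46, adjusted p = 0.021). The HOXA2-A6 call was lost without C3659 (adjusted p = 0.057) and under median of ratios scaling (0.074). Median relative depth in XX DSD was 0.306 at d41-44 and 0.737 at d35, and its part was not tested. HOXD1 averaged 0.886 ± 0.224 FPKM at d41-44 and 0.238 ± 0.200 FPKM at d35, under the filter, and was called only with no filter on low values (adjusted p = 0.0012), as was HOXC10, at 0.296 ± 0.0895 and 0.601 ± 0.197 FPKM (0.036).

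In XY DSD littermates of d41-44 against d35, 3 of 13 tested members were called, all 3 higher, with 38.4% of all tested loci called (15.2% higher and 23.2% lower), and a median log2 fold change of 0.23 for members and -0.01 for all tested loci. HOXD3-D4 was 14.5, 16.1 and 15.3 FPKM at d41-44, against 8.16, 8.22, 6.88 and 7.67 FPKM at d35 (log2 fold change 0.90 ± 0.09 SE, adjusted p = 0.00038). HOXC4-C6 was 16.2, 23.6 and 20.1 FPKM at d41-44, against 9.33, 11, 10.4 and 8.97 FPKM at d35 (log2 fold change 0.93 ± 0.14 SE, adjusted p = 0.0020). HOXD8 antisense was 51.8, 49.7 and 48.2 FPKM at d41-44, against 27.6, 27.8, 31.6 and 28.9 FPKM at d35 (log2 fold change 0.77 ± 0.08 SE, adjusted p = 0.00046). For none of these did the ages overlap, and all 3 calls were kept in every fit run. Relative depth was 0.272 to 0.299 at d41-44 and 0.507 to 0.624 at d35 in these littermates, and its part was not tested. In the same embryos HOXB7 averaged 0.563 ± 0.0676 FPKM at d41-44 (SD, n = 3) and 1.13 ± 0.255 FPKM at d35 (SD, n = 4), which did not pass the test (adjusted p = 0.15). HOXA2-A6 was 5.26 ± 1.4 and 4.90 ± 0.814 FPKM (adjusted p = 0.74).

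In controls the span was shorter and fewer loci were called. In XX Control gonads of d44 against d37-39, 1 of 14 tested members was called, with 2.61% of all tested loci called (1.96% higher and 0.646% lower). HOXA7 was 4.04, 4.06 and 4.07 FPKM at d44, against 5.50, 6.29 and 7.24 FPKM (lowest, median, highest) at d37-39. The ages did not overlap (log2 fold change -0.55 ± 0.08 SE, adjusted p = 0.012), and the adjusted p was 0.052 without A1104, 0.062 without A1110 and 0.065 against d39 embryos alone. HOXB3-B4-B6 averaged 2.04 ± 0.438 FPKM at d44 and 3.29 ± 0.430 FPKM at d37-39, also without overlap, at an adjusted p of 0.062. In XY Control gonads, 0 of 13 tested members were called by limma (1 at an unadjusted p under 0.05), with 0.138% of all tested loci called (0.0691% in each direction). The member with the lowest p was HOXD3-D4, at 14.7, 17.3 and 11.7 FPKM at d44 against 15.8, 29.2 and 79.5 FPKM (lowest, median, highest) at d37-39 (adjusted p = 0.52).

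The d34 pools are single libraries and were not tested. HOXA2-A6 was 23.4 FPKM in the XX and 24.8 FPKM in the XY pool, above every later embryo, of which the highest had 14.2 FPKM. HOXA7 was 11.5 and 11.8 FPKM, against at most 7.24 FPKM later. HOXB3-B4-B6 was 6.84 and 12.1 FPKM, and HOXB5 1.88 and 2.35 FPKM. HOXD3-D4 was 29.8 FPKM in the XX and 61.4 FPKM in the XY pool. HOXD8 did not follow these loci: it was 63.3 FPKM in the XX pool and 35.4 FPKM in the XY pool, the lowest of the series, as was HOXD8 antisense at 12 FPKM. HOXA2-A6 and HOXA7 were thus not higher in the XX pool, with 1 library per sex and the XY pool the shallowest of the series (relative depth 0.138). Not all later comparisons called them higher in XX. The adjusted p of HOXA2-A6 was 0.12 at d41-44 in the model pedigree. That of HOXA7 was 0.15 in controls of d44, and 0.40 at d37-39 and 0.30 at d41-44 in the model pedigree. The neuronal gene ELAVL4 was highest in the pools too, as given above, the kidney podocyte and nephron markers summed to 167 FPKM in the XX and 153 FPKM in the XY pool, and the pools differed in breed from all other embryos. The part of these in the pool values was not tested.

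The TALE cofactors, 8 of 9 of which could be tested, were compared in the same way. In controls of d37-39, 4 of the 8 were higher and 1 lower in XX than in XY gonads, where 26.5% of all tested loci were called. MEIS1 averaged 10.2 ± 0.673 FPKM in XX and 5.35 ± 0.269 FPKM in XY controls (SD, n = 6 each; adjusted p = 6.3e-07), and MEIS2 28.2 ± 2.28 and 15.5 ± 1.62 FPKM (adjusted p = 5.5e-06). PKNOX2 was lower in XX, at 6.60 against 10.1 FPKM (adjusted p = 0.0012). At d35, where 21.4% of all tested loci were called, 2 of 8 were higher in XX DSD than in XY littermates, MEIS1 at 10.2 ± 2.44 against 4.30 ± 0.312 FPKM (adjusted p = 0.00037) and MEIS2 at 29.3 ± 4.22 against 16.5 ± 0.720 FPKM (adjusted p = 0.00018). Between XX DSD and XX Control gonads of d41-44, 3 of 8 were called, a share below the 48.5% of all tested loci. PBX3 was higher (27.7 against 14.7 FPKM, adjusted p = 0.00015) and PKNOX2 and MEIS3 were lower (4.41 against 6.71 FPKM, adjusted p = 0.00015, and 7.84 against 10.8 FPKM, adjusted p = 0.049). PBX3 was also higher in the DSD pedigree at d37-39, in XX at 24.4 against 15.7 FPKM (adjusted p = 0.00025) and in XY gonads at 19.7 against 12.5 FPKM (adjusted p = 0.041). Like HOXA2-A6, MEIS1 was highest in the d34 pools, at 29.2 FPKM in XX and 28.4 FPKM in XY. The CDX genes, which turn on HOX clusters in the posterior embryo, were low: CDX2 and CDX4 did not exceed 0.0904 FPKM in any library, and the CDX1 group means were 0.0659 to 0.543 FPKM.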

How the data were processed

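RNA-seq of 55 libraries of canine embryonic gonads was used. As deposited by the authors, FPKM values come from single-end reads of a polyA kit without strand, aligned with TopHat2 2.0.13 to CanFam3 after adapter removal by cutadapt (version 1.5 per the processing notes, given otherwise in the methods) and normalised by Cuffnorm of Cufflinks 2.2.1. Values were read from the table of 58781 assembled loci, with names and exons from its assembly file. Symbol-less genes and AMH were read from the annotated table.

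Groups were compared with limma 3.58.1 (eBayes with trend) in R 4.3.3 on log2(FPKM + 1). Tests were two-sided, and p-values were adjusted by Benjamini-Hochberg over all loci with a mean of 1 FPKM or more in either group. Members were named with all values where the adjusted p was under 0.05 and the ratio of means 1.5 or more, up to 8 per comparison, with the highest and lowest member of each cluster. A locus is antisense where its named transcripts lie on the opposite strand of the gene. Embryos are separate animals but share litters, so p-values measure the spread between these embryos. Read counts are unknown; relative depth is the commonest ratio of values under 0.5 FPKM in loci with 1 transcript, the same within 0.15 log2 against 3 reference libraries for 52 of 55. The test was tested on simulated data. Other pseudocounts, filters, scalings, fits, a litter block and leaving out libraries were tried. The members and lists were chosen with earlier results of these data known. The 9 TALE genes, 3 CDX genes and markers of cell types served as lists. No sequences are printed. The embryos labelled d41 (C3691, C3694 and C3696) are given a younger age elsewhere in the study and were kept as labelled. The counts cover all members, and the values of 1 member are not reported here.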

Additional observations from a re-analysis of the deposited data

Results flagged for a closer look

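Among 88 combinations of a member with a mean of 1 FPKM or more and a group of 4 to 10 embryos, 6 had an embryo far from the others of its group by Dixon's test, where chance gives about 1 in 20. In XX DSD of d35, embryo C3575 was the highest for 3 members of the HOXD cluster: HOXD8 at 97.4 FPKM (the others 61.9 to 77.5 FPKM), HOXD10-D11 at 15.1 FPKM (5.45 to 9.39 FPKM) and HOXD10 antisense at 68.3 FPKM (17.8 to 39.7 FPKM). In XY Control of d37-39, HOXD3-D4 was 79.5 FPKM in A1099 (the others 15.8 to 33.4 FPKM) and HOXD8 antisense was 43.5 FPKM in A1095 (23.6 to 30.3 FPKM). In XY DSD of d35, HOXB7 was 0.749 FPKM in C3618 (the others 1.24 to 1.27 FPKM). Without A1095, 2 members were called between XY littermates and XY controls of d37-39, against 0 with it. The share of all tested loci called without A1095 is not given here.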

How the results depend on the processing

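No fold change of a called member changed sign in any alternative. Of the 38 called fold changes, 37 kept their call with a pseudocount of 0.1, 35 under median of ratios scaling, 37 with the gene density trend removed and 31 in 1 fit over all groups. With litter as a random block 28 of 33 were kept, and when 1 embryo was left out at a time 330 calls were kept and 79 lost. The labels carry no replicate numbers, and litter, as the study gives it, entered as a random block. In XX over XY comparisons the block uses the differences within litters that hold both sexes. In comparisons of pedigree or age within 1 sex, each litter lies wholly in 1 group, so no difference within litters exists. Controls of d44 were of 1 litter, so that pedigree and that litter cannot be told apart there.

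Counts of called members moved by over 1.5 times as follows. The annotated loci alone hold none of the 6 antisense loci, so calls of antisense loci drop out of those counts by construction. The 24 called fold changes of sense loci all kept their call there. For XX DSD over XX Control, the count of 4 at d37-39 was 1 with the litter block and 1 in d39 embryos alone, and the count of 3 at d41-44 was 1 over annotated loci alone. For XY DSD littermates over XY Control, the count of 0 at d37-39 was 4 in 1 fit over all groups, and the count of 1 at d41-44 was 2 with the litter block and 0 without the d41 embryos, with no filter on low values and over annotated loci alone. For XX over XY, the count of 5 in controls of d44 was 3 in 1 fit over all groups, and the counts of 3 and 4 in the DSD pedigree were 6 in 1 fit over all groups at d37-39 and 2 without the d41 embryos at d41-44. For age, the count of 1 in XX Control was 0 in 1 fit over all groups, 0 in d39 embryos alone and 2 over annotated loci alone, the count of 0 in XY Control was 1 in 1 fit over all groups, that of 4 in XX DSD was 7 with no filter, and that of 3 in XY DSD was 5 under median of ratios scaling, which moved the median log2 fold change of all tested loci from -0.01 to 0.16 there, from -0.03 to 0.09 for age in XX DSD and from -0.09 to 0.01 for XX DSD over XX Control at d41-44. Other causes were not tested.

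Leaving out 1 embryo gave 2 to 4 calls for XX DSD over XX Control at d37-39 and 2 to 3 at d41-44, 0 to 2 and 0 to 1 for XY littermates over XY Control, 4 to 5 and 3 to 6 for XX over XY Control, 2 to 8, 1 to 4 and 2 to 4 for XX DSD over XY littermates at d35, d37-39 and d41-44, 0 to 2 and 0 to 0 for age in XX and XY Control, 3 to 5 for age in both XX DSD and XY littermates, and 0 to 0 and 0 to 1 for the interactions. The counts of this section are given without the share of all tested loci called in each fit. They cannot show whether members moved apart from the other loci. Tests over annotated loci alone and without the 4 libraries with many unannotated loci were chosen after seeing the data. The annotated table was not run, because it holds identifiers without HOX symbols, and no litter block was needed for XX over XY Control at d44, where both sexes are of 1 litter. Members with a mean under 1 FPKM in both groups were tested with no filter alone.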
